A study of Arabidopsis thaliana with 20 samples.

Results

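The late embryogenesis abundant (LEA) genes of *Arabidopsis thaliana* were examined as a family, by the gene identifiers of its structural groups: 53 members among the 37184 genes counted. Transcripts were measured by 3'RNA-seq in siliques collected 13 to 20 days after pollination from WT (accession Col-0) and from *msh-1*, with 4 libraries per genotype. *msh-1* is a homozygous T-DNA insertion line in the Col-0 background, a single insertion allele, in which the transcriptional unit of the long non-coding RNA *MUSHER* next to *DOG1* is disrupted. Both genotypes were grown on soil in 16 h of light at 22 °C and 8 h of dark at 18 °C, and no treatment is named. The labels name siliques as the tissue and call the 4 libraries of a genotype biological replicas, whereas the text of the study speaks of freshly harvested seeds.

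LEA proteins accumulate in the embryo as the seed matures and dries. Most are small, very hydrophilic and without a stable fold in water, and they are known for protecting membranes and enzymes during water loss. In seeds many of their genes are switched on by abscisic acid (ABA) through bZIP factors such as ABI5, which bind ABA-response elements with an ACGTG core, together with B3 factors such as ABI3, which act through RY elements. Some members respond instead to cold or drought in leaves, through factors of the DREB/CBF type that bind the CCGAC core.

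The genotype labels were checked first. *DOG1* (AT5G45830), the dormancy gene, lay between 35.7 and 48.0 CPM (normalized read count, scaled by TMM factors) in WT and between 20.5 and 23.2 CPM in *msh-1*, and *PIR1* (AT2G35330), an E3 ligase of the ABA response, lay between 8.67 and 11.9 CPM in WT and at most at 0.317 CPM in *msh-1*. Library totals lay between 959004 and 2498295 counts for WT and between 2590800 and 6500907 for *msh-1*, so that depth and genotype cannot be told apart. Seed storage genes, which mark embryo and endosperm, summed to between 70544 and 77080 CPM for WT and between 62450 and 71331 CPM for *msh-1*. Of these 10 genes 8 had a fold change below 0, and the albumin gene *SESA4* was called lower in *msh-1* (log2 fold change -0.73, edgeR adjusted p = 0.0454). Of the silique wall list the valve margin gene *IND* was at 0 in each library, and *SHP2* and *ALC* had at most 3 counts. *SHP1* lay between 3.25 and 13.7 CPM over all libraries, *FUL* between 1.08 and 7.13 CPM and *RPL* between 1.08 and 5.33 CPM. WT replicate 4 and *msh-1* replicate 1 stood apart in the markers of other tissue. The 15 green tissue genes summed to 24.9 and 63.3 CPM in these libraries against 125 to 204 CPM in the other 6, the 5 seed coat genes to 5.42 and 6.19 CPM against 12.6 to 24.2 CPM, and the 6 silique wall genes to 5.42 and 7.46 CPM against 11.7 to 22.8 CPM. The calls, the family sum and the members with an unadjusted p under 0.05 are therefore also given without them. Other comparisons rest on all 8 libraries unless stated. In whole siliques, fewer cells of a type and less RNA per cell cannot be told apart.

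The promoters of 5 members are shown because they span the levels found here and include the pair *M17* and *M10*. The count ratio of this pair, formed after the values were seen, is described below without a test. Each is the 250 bases before the annotated gene start in TAIR10.1, 5′ to 3′ on the strand of the gene, with each ACGTG, on either strand, in capitals. *RAB18* (chr5:26519448-26519697, minus strand) and *EM6* (chr2:16780369-16780618, minus strand) are the most abundant members, *M10* (chr2:17209447-17209696, plus strand) and *M17* (chr2:17206202-17206451, plus strand) lie close together on chromosome 2, and *COR15A* (chr2:17712331-17712580, minus strand) is a cold-response member with hardly a count.
RAB18: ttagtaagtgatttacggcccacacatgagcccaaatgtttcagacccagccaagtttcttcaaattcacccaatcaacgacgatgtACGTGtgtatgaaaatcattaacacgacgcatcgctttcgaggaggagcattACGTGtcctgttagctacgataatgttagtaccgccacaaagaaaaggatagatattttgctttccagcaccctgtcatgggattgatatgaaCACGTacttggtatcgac
EM6: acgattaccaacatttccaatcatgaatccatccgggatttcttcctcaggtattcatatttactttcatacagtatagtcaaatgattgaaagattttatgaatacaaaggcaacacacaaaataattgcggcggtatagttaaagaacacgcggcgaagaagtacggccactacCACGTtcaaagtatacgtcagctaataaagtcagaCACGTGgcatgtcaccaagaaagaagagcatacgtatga
M10: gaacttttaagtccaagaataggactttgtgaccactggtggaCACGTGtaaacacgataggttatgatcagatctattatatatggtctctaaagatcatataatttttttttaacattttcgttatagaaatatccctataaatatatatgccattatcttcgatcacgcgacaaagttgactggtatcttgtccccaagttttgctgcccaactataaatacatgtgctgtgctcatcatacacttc
M17: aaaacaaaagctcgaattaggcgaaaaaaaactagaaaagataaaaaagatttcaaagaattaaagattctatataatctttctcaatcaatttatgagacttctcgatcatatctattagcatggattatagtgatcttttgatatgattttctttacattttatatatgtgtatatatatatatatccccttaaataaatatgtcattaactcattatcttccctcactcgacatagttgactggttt
COR15A: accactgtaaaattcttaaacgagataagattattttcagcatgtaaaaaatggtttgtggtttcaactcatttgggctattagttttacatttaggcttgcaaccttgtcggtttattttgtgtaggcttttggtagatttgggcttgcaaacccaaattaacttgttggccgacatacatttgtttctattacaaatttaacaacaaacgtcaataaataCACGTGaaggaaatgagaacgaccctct

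*RAB18* and *EM6* each held 3 matches to the ABRE core, of which 2 of *EM6* are the 2 strands of the G-box CACGTG. *M10* held 2, which also are both strands of a single G-box, and *M17* held none. *COR15A* held a G-box and 2 DRE cores. Across the family, 37 of 53 promoters held at least 1 ACGTG on either strand (69.8%), against 22.9% of the promoters of the same length of 27443 protein-coding genes. The G-box CACGTG, which contains the core on both strands, occurred in 41.5% of members and 6.49% of all genes, the DRE core CCGAC in 37.7% and 12%, and the RY element CATGCA in 17% and 8.43%. The core was found in 20 of the 23 members above 1000 CPM and in 6 of the 8 at 100 to 1000 CPM. It was also found in 6 of the 7 members at 10 to 100 CPM. Of the 15 members at 10 CPM or less, which include *COR15A*, 5 held it. The 3 abundant members with no match were *M17*, *ATECP31* and *LTI30*, and AT3G53040 and AT4G36600 held the most, with 7 matches each. A match is a description of these letters, not a bound site.

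**Figure D1:**
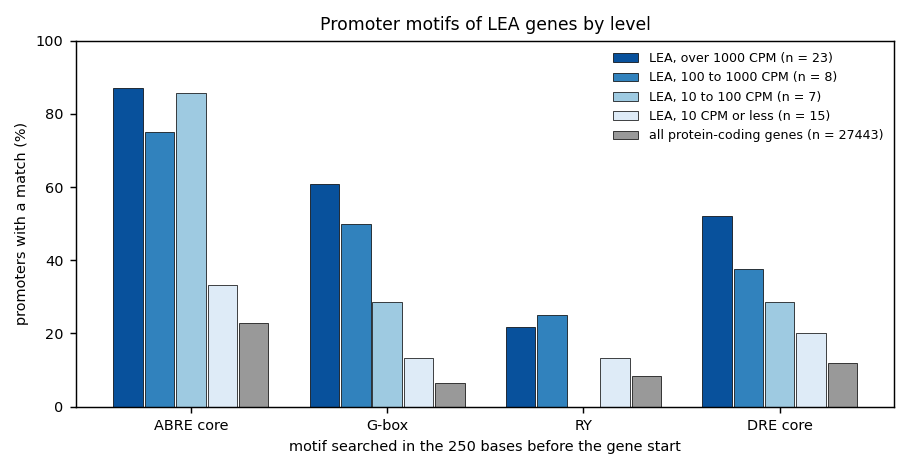
Share of promoters (%, vertical axis) with at least 1 match to each of 4 motifs in the 250 bases before the gene start, for LEA genes in 4 classes of mean CPM (blue bars) and for all protein-coding genes (grey bars). The ABRE core was present in 87% of the 23 members above 1000 CPM and in 75% of the 8 at 100 to 1000 CPM. It was present in 85.7% of the 7 at 10 to 100 CPM, 33.3% of the 15 at 10 CPM or less and 22.9% of all genes.

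The encoded proteins ranged from 68 residues (AT3G02480) to 635 residues (AT2G42560). Mean hydropathy on the Kyte-Doolittle scale was below 0, the hydrophilic side, in 51 of 53, the others being *LEA14* and AT2G46140 of the LEA_2 group, and 24 members lacked both cysteine and tryptophan. The core of the K-segment, the lysine-rich repeat that defines dehydrins, was found exactly in 7 members and with at most 2 mismatches over 8 residues in 9, and these were dehydrins, of which the list holds 10. *RAB18* consisted of 33.9% glycine. *M17* differed from most of the family, with 24 cysteines in 280 residues and 21.8% glycine.

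LEA transcripts took a like share of the counts in each library. It was 16.4%, 16.1%, 16.8% and 17.4% in WT replicates 1 to 4 and 17.3%, 16.9%, 16.4% and 16.3% in *msh-1* replicates 1 to 4. The exact binomial 95% interval was 17.3 to 17.5% for the shallowest library, which is WT replicate 4, and it covers counting error only. On the normalized scale the sum was 168177 ± 9086 CPM for WT and 165992 ± 9045 CPM for *msh-1* (SD, n = 4), a log2 ratio of -0.02 with all libraries and also without WT replicate 4 and *msh-1* replicate 1. The ranges overlapped almost fully, at 158907 to 180635 CPM for WT and 159234 to 178888 CPM for *msh-1*, and WT replicate 4 and *msh-1* replicate 1 were the highest of their genotypes.

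**Figure D2:**
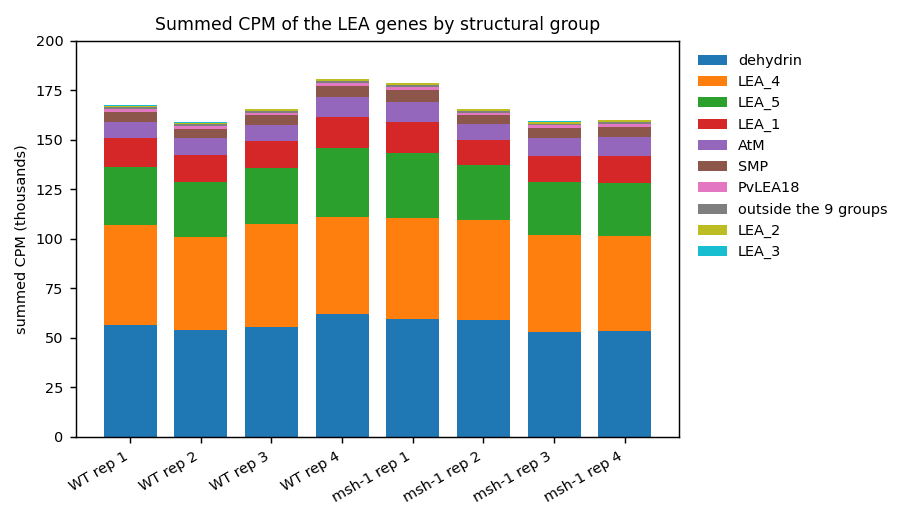
Summed CPM (vertical axis, in units of 1000 CPM) of the LEA genes in each library (horizontal axis), with the structural groups stacked. The totals lie between 158907 and 180635 CPM in WT and between 159234 and 178888 CPM in *msh-1*, with dehydrins, LEA_4 and LEA_5 as the thickest layers.

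The family was far from even. The method reads only transcript 3' ends, so CPM was not divided by length and is compared between genes on that basis. Of the 53 members, 23 lay above 1000 CPM on average, 8 between 100 and 1000 CPM, 7 between 10 and 100 CPM and 15 at 10 CPM or less. 22 members were among the 100 most abundant genes of the libraries and 3 among the first 10. The 3 highest members together gave 51.9% of all LEA CPM and the 10 highest 76.4%. By structure, the 10 dehydrins gave 33.8%, the 18 LEA_4 genes 29.7%, the 2 LEA_5 genes 17.6%, the 3 LEA_1 genes 8.44%, the 2 AtM genes 5.36% and the 6 seed maturation proteins (SMP) 2.95%. The PvLEA18, LEA_2 and LEA_3 groups and the 2 genes outside the 9 groups each gave less than 1%.

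**Figure D3:**
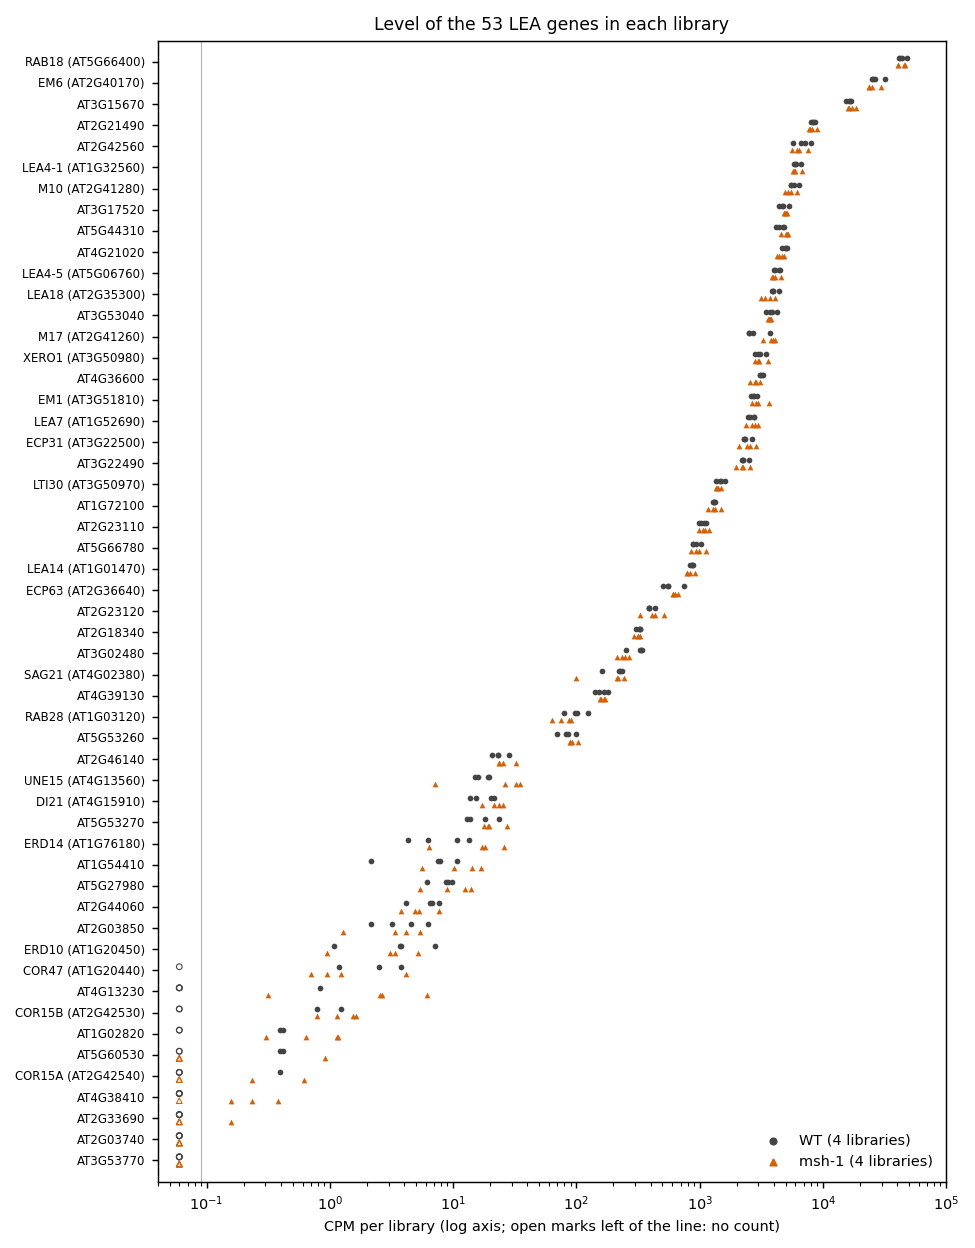
CPM of each of the 53 LEA genes (rows, ordered by mean CPM) in the 4 WT libraries (dark circles) and the 4 *msh-1* libraries (orange triangles), on a log axis, with libraries without a count as open marks at the left. The genes fall from *RAB18*, at 43519 CPM on average, to 2 genes with no count, and the marks of the 2 genotypes lie over each other in most rows.

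No member was called in *msh-1* against WT. Genes were called by edgeR's quasi-likelihood test with a Benjamini-Hochberg adjusted p under 0.05 together with a change of more than 1.5-fold. 42 members passed the filter on low counts, and 0 of them were called, while 0.413% of the 10902 genes tested were. 0 members had an adjusted p under 0.05 whatever the fold (0.431% of all genes), and the lowest adjusted p was 0.177. DESeq2 and limma-voom on the same 8 libraries also called 0 members, beside 0.486% and 0.22% of all genes they tested. An unadjusted p under 0.05 was reached by 4 members, 1 higher and 3 lower in *msh-1*, beside 3.98% of all genes in the upward and 4.5% in the downward direction. The members lay on either side of 0, with 22 log2 fold changes above and 20 below and a median of 0.01, against -0.01 over all genes tested. With all 8 libraries, the genotypes separated without overlap in none, as they did upward for 2.56% and downward for 2.2% of all genes. Without WT replicate 4 and *msh-1* replicate 1 some members separated, such as *EM6* and *LTI30* downward and *M17* and *ECP63* (AT2G36640) upward. An unadjusted edgeR p under 0.05 was then reached by 11 of 42 members. With fewer libraries separation is reached more easily, and the shares over all genes were not computed for these 2 counts.

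How far a difference could be seen depended on the level. The 95% interval of the fold change stayed within 1.5-fold in either direction for 30 of the 42 members, and for 50.9% of all genes tested. Among the 23 members above 1000 CPM it did so for 22, *M17* being the other, and the bounds ran from 0.784-fold to 1.56-fold. The median SD between libraries of a genotype was 0.14 on the log2 scale for the members and 0.26 for all genes tested. The steadiest member was AT2G18340, with an SD of 0.06, followed by AT4G21020 and *LEA14* with 0.07 and 0.08. The most variable were AT1G54410, *ERD14* and *UNE15*, at 0.80, 0.77 and 0.74, all under 22 CPM on average, and for these a change of more than 2-fold in *msh-1* lay within the interval.

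**Figure D4:**
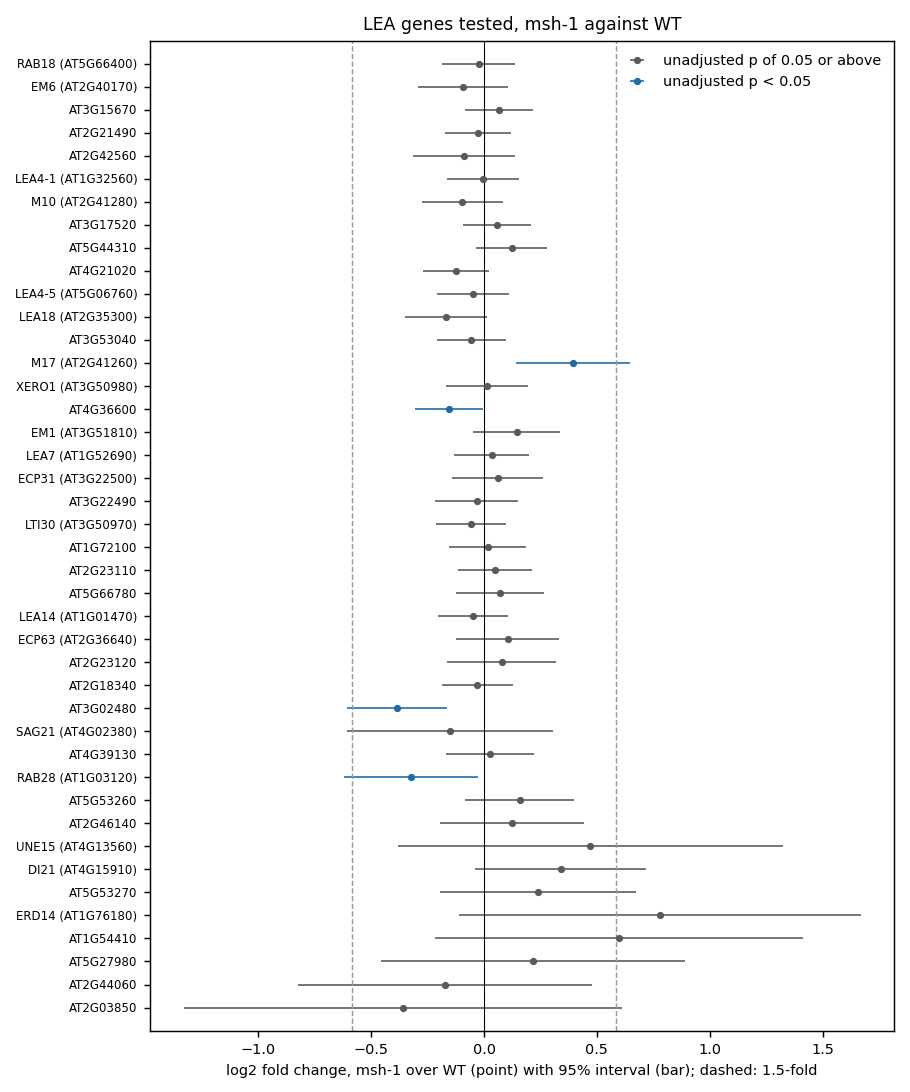
log2 fold change of *msh-1* over WT (horizontal axis) with its 95% interval for the 42 LEA genes tested, ordered by mean CPM, where blue marks an unadjusted p under 0.05 and the dashed lines stand at 1.5-fold. Intervals are narrow at the top and reach 2-fold and more for the low genes at the bottom, and the points range from -0.38 to 0.78.

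Dehydrins were led by *RAB18* (AT5G66400), an ABA-induced dehydrin and the second most abundant gene of these libraries. It stood at 43520, 41165, 42285 and 48565 CPM in WT and at 45186, 46579, 40406 and 40447 CPM in *msh-1*. The highest library was WT replicate 4, and the genotypes overlapped throughout. The means were 43884 ± 3266 and 43154 ± 3201 CPM (SD, n = 4), with a log2 fold change of -0.02 ± 0.08 (SE, edgeR adjusted p = 0.984, exact permutation p = 0.771) and an interval of 0.878-fold to 1.1-fold. *RAB18* overlaps AT5G66410 on the other strand, which had at most 38 counts in a library. AT2G21490 at 8270 CPM, *XERO1* at 3093 CPM, *LTI30* at 1446 CPM and AT4G39130 at 162 CPM followed. *ERD14*, AT1G54410, *ERD10*, *COR47* and AT4G38410 were lower, with *ERD14* at 12.7 CPM, *ERD10* at 3.54 CPM and *COR47* at 1.81 CPM. Genes known from cold or drought responses of leaves thus stood at both ends, since *LTI30* and *RAB18* are induced there as well.

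The LEA_5 group consists of the wheat Em homologues, which are markers of the late embryo and targets of ABI5. *EM6* (AT2G40170, also *GEA6*) stood at 26661, 25244, 25493 and 31938 CPM in WT and at 29636, 25120, 23856 and 23882 CPM in *msh-1*, again highest in WT replicate 4 and *msh-1* replicate 1. The means were 27334 ± 3131 and 25624 ± 2740 CPM (SD, n = 4) and the log2 fold change -0.09 ± 0.09 (SE, edgeR adjusted p = 0.844, exact permutation p = 0.429). Without these libraries the genotypes did not overlap, and the log2 fold change was -0.08 (edgeR adjusted p = 0.584). *EM1* (AT3G51810) was less abundant, at 2749 ± 137 CPM for WT and 3039 ± 414 CPM for *msh-1* (SD, n = 4). The ratio of its counts to those of *EM6* lay between 0.092 and 0.106 in WT and between 0.1064 and 0.1242 in *msh-1*. These ranges lay close together but did not overlap, and the ratio was not tested.

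In the LEA_4 group, AT3G15670 was the highest, between 15395 and 16794 CPM in WT and between 15861 and 18682 CPM in *msh-1*, with means of 16290 ± 619 and 17052 ± 1227 CPM (SD, n = 4). Its log2 fold change was 0.07 ± 0.07 (SE, edgeR adjusted p = 0.852, exact permutation p = 0.343). AT2G42560, AT3G17520, AT5G44310 and AT4G21020 lay between 4526 and 6859 CPM in each genotype on average. Of the 14 LEA_4 genes tested, 7 had a fold change above and 7 below 0, and the median was -0.01.

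AT3G02480 was the lowest of the 42 members by fold change. This LEA_4 gene encodes the shortest protein of the family, and its promoter held 3 matches to the ABRE core. It stood at 325.9, 334.7, 339.8 and 254.6 CPM in WT and at 267.3, 211.7, 234.8 and 250.4 CPM in *msh-1*. WT replicates 1 to 3 were above each *msh-1* library, while WT replicate 4 lay among them. The means were 314 ± 39.9 and 241 ± 23.6 CPM (SD, n = 4), or 76.8% of WT, with a log2 fold change of -0.38 ± 0.10 (SE, edgeR p = 0.00234, adjusted p = 0.177, exact permutation p = 0.0571). Without WT replicate 4 and *msh-1* replicate 1 the log2 fold change was -0.51 with an edgeR adjusted p of 0.000358. Without WT replicate 4 alone the adjusted p was 0.0165 and without *msh-1* replicate 1 alone 0.0318.

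AT4G36600, another LEA_4 gene, moved less and in the same direction. It stood at 3211, 3084, 3271 and 3070 CPM in WT and at 3077, 2573, 2853 and 2833 CPM in *msh-1*, where only replicate 1 reached the WT range. The log2 fold change was -0.16 ± 0.07 (SE, edgeR p = 0.0431, adjusted p = 0.571, exact permutation p = 0.0571, n = 4). It was -0.21 without WT replicate 4 and *msh-1* replicate 1 (edgeR adjusted p = 0.0914).

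*UNE15* (AT4G13560), named from a screen for fertilization defects, varied most between the *msh-1* libraries among the genes of the LEA_4 group above 10 CPM. It stood at 16.0, 19.0, 15.0 and 19.5 CPM in WT and at 7.14, 34.8, 32.4 and 26.4 CPM in *msh-1*. The 3 *msh-1* replicates 2 to 4 lay above each WT library and replicate 1 below them all. Over 8 libraries the log2 fold change was 0.47 ± 0.40 (SE, edgeR adjusted p = 0.8, exact permutation p = 0.629), and without WT replicate 4 and *msh-1* replicate 1 it was 0.88 with an edgeR adjusted p of 0.00269. Without *msh-1* replicate 1 alone it was 0.85 (edgeR adjusted p = 0.00677), and without WT replicate 4 alone 0.51 (adjusted p = 0.755). The green tissue genes named above were also lowest in replicate 1 among the *msh-1* libraries, but in WT replicate 4, where they were lowest of all, *UNE15* was the highest of WT. Their part in this result was not tested. *UNE15* overlaps AT4G06105 and AT4G06110, 1 of them on each strand, in the annotation. AT2G41260 (*M17*), AT3G02480 and *UNE15* are also in the list of changed genes that the study drew from these samples, so that list is no independent evidence of their direction.

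The AtM group holds *M17* and *M10*, nearby genes of late embryos whose proteins shared 28.4% of aligned positions. *M17* (AT2G41260) stood at 2503, 2706, 2531 and 3704 CPM in WT and at 4053, 3247, 3772 and 3953 CPM in *msh-1*. WT replicates 1 to 3 were below each *msh-1* library, and WT replicate 4 lay within their range. The means were 2861 ± 569 and 3756 ± 359 CPM (SD, n = 4), or 131% of WT, with a log2 fold change of 0.39 ± 0.12 (SE, edgeR p = 0.0047, adjusted p = 0.252, exact permutation p = 0.0571) and an interval of 1.1-fold to 1.56-fold. Without WT replicate 4 and *msh-1* replicate 1 the log2 fold change was 0.51 (edgeR adjusted p = 0.000109), below the 1.5-fold limit of a call, and without WT replicate 4 alone it was 0.54 (adjusted p = 0.00355). Without *msh-1* replicate 1 alone it was 0.36 (edgeR adjusted p = 0.146).

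*M10* (AT2G41280) did not share this pattern in its values, at 5786, 5536, 5548 and 6459 CPM in WT and at 6186, 4888, 5216 and 5525 CPM in *msh-1*. Its log2 fold change was -0.10 ± 0.08 (SE, edgeR adjusted p = 0.808, exact permutation p = 0.314, n = 4). The count ratio of *M17* to *M10* within a library, which does not depend on scaling, was 0.433, 0.489, 0.456 and 0.573 in WT and 0.655, 0.664, 0.723 and 0.715 in *msh-1*. The genotypes thus did not overlap in this ratio, with WT replicate 4 the highest of WT. The ratio was formed after the values of *M17* had been seen and is given as a description, without a test.

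**Figure D5:**
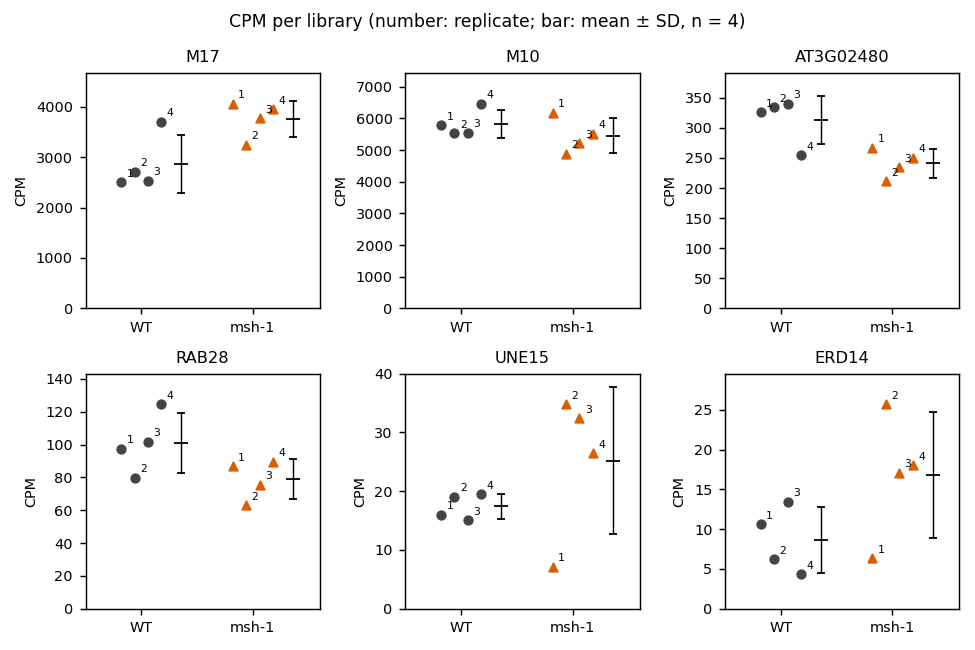
CPM per library (vertical axes, from 0) of *M17*, *M10*, AT3G02480, *RAB28*, *UNE15* and *ERD14* in WT (dark circles) and *msh-1* (orange triangles), with the replicate number at each point and the mean ± SD (n = 4) as a bar. For *M17* and AT3G02480 only WT replicate 4 lies in the range of *msh-1*, and for *UNE15* and *ERD14* *msh-1* replicate 1 lies far below the other *msh-1* libraries.

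Seed maturation proteins were led by *ATECP31* (AT3G22500), related to a carrot protein of embryogenic cells, and its neighbour AT3G22490, with 79.4% identical aligned positions. *ATECP31* stood at 2346, 2288, 2300 and 2665 CPM in WT and at 2894, 2097, 2436 and 2577 CPM in *msh-1*, with a log2 fold change of 0.06 ± 0.09 (SE, edgeR adjusted p = 0.921, n = 4). The ratio of AT3G22490 to *ATECP31* counts lay between 0.946 and 0.975 in WT and between 0.876 and 0.934 in *msh-1*, without overlap and without a test. The ratios of AT2G23110 to AT2G23120, *LTI30* to *XERO1* and AT5G53260 to AT5G53270 overlapped between the genotypes, while that of *EM1* to *EM6* did not. How often such ratios separate over all gene pairs was not computed. AT3G22490 overlaps a gene on the other strand that had at most 115 counts.

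*RAB28* (AT1G03120), also of this group and ABA-responsive in maize, was at 97.5, 79.8, 102 and 125 CPM in WT and at 86.9, 63.1, 75.5 and 89.6 CPM in *msh-1*. WT replicate 2 lay inside the *msh-1* range. The means of 101 ± 18.4 and 78.8 ± 12.1 CPM (SD, n = 4) gave a log2 fold change of -0.32 ± 0.14 (SE, edgeR p = 0.0345, adjusted p = 0.536, exact permutation p = 0.114), and without WT replicate 4 and *msh-1* replicate 1 it was -0.26 (edgeR adjusted p = 0.363). The pair AT5G53260 and AT5G53270 was lower, at 84.3 and 17.1 CPM on average for WT and at 93.1 and 21.0 CPM for *msh-1*.

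Each of the 3 LEA_1 genes had a fold change below 0, and none passed the test. *AtLEA4-1* (AT1G32560) stood between 5801 and 6645 CPM in WT and between 5776 and 6796 CPM in *msh-1*, with a log2 fold change of -0.00478 ± 0.07 (SE, edgeR adjusted p = 0.9999, n = 4). AT2G35300 (*LEA18*) is of interest because its locus number is close to that of *PIR1*. It stood at 3961, 3867, 3965 and 4400 CPM in WT and at 4106, 3168, 3384 and 3742 CPM in *msh-1*, where replicate 1 alone lay in the WT range, and its log2 fold change was -0.17 ± 0.08 (SE, edgeR p = 0.0665, adjusted p = 0.622, exact permutation p = 0.171). It was -0.19 without WT replicate 4 and *msh-1* replicate 1 (edgeR adjusted p = 0.155).

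The small groups were lower and gave no call. *LEA14* (AT1G01470), a LEA_2 protein with a stable fold, lay between 841 and 878 CPM in WT and between 789 and 918 CPM in *msh-1* (log2 fold change -0.05 ± 0.07 SE, edgeR adjusted p = 0.915, n = 4). AT2G23110, the higher PvLEA18 gene, lay between 990 and 1120 CPM and between 993 and 1192 CPM (0.05 ± 0.08 SE, adjusted p = 0.926, n = 4), and AT5G66780, outside the 9 groups, between 883 and 1023 CPM and between 847 and 1130 CPM (0.07 ± 0.09 SE, adjusted p = 0.896, n = 4). *SAG21* (AT4G02380), a mitochondrial LEA_3 protein of senescence and oxidative stress, stood at 222, 226, 235 and 162 CPM in WT and at 100.1, 212, 242 and 219 CPM in *msh-1*. Its lowest libraries were those with the lowest sums of green tissue genes, and its log2 fold change was -0.15 ± 0.21 (SE, edgeR adjusted p = 0.908, exact permutation p = 0.629).

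*ERD14* (AT1G76180), a phosphorylated dehydrin of leaves and roots, was likewise lowest in WT replicate 4 and *msh-1* replicate 1 within each genotype. It stood at 10.7, 6.21, 13.5 and 4.33 CPM in WT and at 6.35, 25.7, 17.1 and 18.0 CPM in *msh-1*, with a log2 fold change of 0.78 ± 0.41 (SE, edgeR adjusted p = 0.655). Without WT replicate 4 and *msh-1* replicate 1 it was 0.98 (adjusted p = 0.0234) and without *msh-1* replicate 1 alone 1.11 (adjusted p = 0.0284), but DESeq2 on the same 6 libraries did not call it. *ERD14* is described in full because of these values. Green tissue genes were also higher in the 3 remaining *msh-1* libraries, at 182 to 204 CPM, than in the 3 remaining WT libraries, at 125 to 152 CPM, although the list was not uniform. Over all 8 libraries, 8 of its 11 genes tested had a fold change above and 3 below 0. *RCA* (rubisco activase) lay between 25.3 and 32.7 CPM in the 3 remaining WT libraries and between 6.32 and 18.1 CPM in the 3 remaining *msh-1* libraries. The part of green tissue in the levels of *ERD14* and *UNE15* was not tested.

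The members not tested were 11. AT2G03740 and AT3G53770 had no count in any library, which with a floor of 3 counts allows up to 0.476 CPM in the deepest library and 3.25 CPM in the shallowest. The cold-induced chloroplast protein gene *COR15A*, AT5G60530, AT4G38410 and AT2G33690 had at most 3 counts in each library. *COR47*, *ERD10*, *COR15B*, AT1G02820 and AT4G13230 had a few more, and COR15B overlaps a gene on the other strand with up to 159 counts against its own 7. AT4G13230, a LEA_4 gene named here after its values were seen, had 0, 2, 0 and 0 counts in WT and 2, 7, 20 and 11 counts in the deeper *msh-1* libraries, so no fold is given.

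The libraries that stood apart also differed in LEA genes. WT replicate 4 was the highest WT library for 23 of the 42 members tested and the lowest for 13. *msh-1* replicate 1 was the highest *msh-1* library for 25 and the lowest for 7. Both libraries were the highest of their genotypes for 16 members. Over all genes tested these libraries were the highest for 32.8% and 28.3%. The median deviation of the members from their genotype mean was 0.05 on the log2 scale in WT replicate 4 and 0.13 in *msh-1* replicate 1. Without these libraries, edgeR called 2 of 42 members, *UNE15* and *ERD14*, both higher in *msh-1*, beside 2.53% of all genes tested, and 4 had an adjusted p under 0.05, with *M17* and AT3G02480 as the others, beside 3.17% of all genes.

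Factors known to control LEA genes were measured in the same libraries. Of 26 listed regulators 15 were tested and 0 were called, beside 0.413% of all genes tested. *ABI5* lay between 512 and 575 CPM in WT and between 494 and 585 CPM in *msh-1*, *ABI3* between 55.4 and 70.8 CPM and between 55.0 and 66.2 CPM, and the genotypes overlapped for both. *DREB2C*, a drought and heat-responsive member of the DREB family, was the only regulator with an unadjusted edgeR p under 0.05, at 24.7 ± 4.66 CPM for WT and 17.4 ± 4.67 CPM for *msh-1* (SD, n = 4). Its log2 fold change was -0.60 (edgeR p = 0.00819, adjusted p = 0.326, exact permutation p = 0.0857). An unadjusted edgeR p under 0.05 was reached in the downward direction by 4.5% of all genes tested. *DREB2A*, of the same family, lay between 311 and 357 CPM in WT and between 358 and 393 CPM in *msh-1*, without overlap (log2 fold change 0.14, edgeR p = 0.0831, adjusted p = 0.659, exact permutation p = 0.0286, the smallest possible). The genotypes separated upward without overlap for 2.56% of all genes tested. *CBF3*, an activator of *COR15A* in the cold, had no count in any library, and *CBF1* and *CBF2* had at most 1.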

How the data were processed

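For the 8 libraries of 3'RNA-seq, reads were aligned with STAR 2.7.8a and demultiplexed with BRBseqTools by the authors. The deposited values are raw counts of each gene. The submitters' processing notes name TAIR10 and DESeq2. The reverse transcription primers carried unique molecular identifiers, but whether reads or identifiers were counted, the strand setting and the annotation are not given in the sources used here, so reads of overlapping genes (10 of 53 members) cannot be told apart. Binomial intervals of shares and the floor cover counting error only, whereas edgeR's intervals of fold changes include the spread between libraries. The other 12 samples, from chromatin purification, were not analysed here.

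Counts were analysed in R 4.3.3 with edgeR 4.0.16 (TMM, filterByExpr, quasi-likelihood test, Benjamini-Hochberg over all genes tested); single genes were also compared by a two-sided exact permutation test on log2(CPM + 0.5), whose smallest p with 4 against 4 is 0.0286. Alternatives were other scalings and filters, DESeq2 1.42.0, limma-voom (3.58.1), a replicate block, equal depth and libraries left out. The code was tested on simulated data. Gene models came from TAIR10.1 (RefSeq), in which all 53 members were found; proteins were translated from its coding sequences, the longest per gene. The members, lists and tests were chosen with earlier results of these data known. Full statistics were given to members past an adjusted or unadjusted p of 0.05, those in the study's list, the most abundant of each group and AT2G35300. The p-values set the difference between genotypes against the spread between libraries.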

Additional observations from a re-analysis of the deposited data

Results flagged for a closer look

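A library far from the other 3 of its genotype was found in 6 of 52 groups of 4 examined, where chance gives about 1 in 20, or 2.6. These groups were not independent, because the sums hold members that were also examined singly. The count of 6 is therefore not read as an excess over chance. WT replicate 4 was far above the other WT libraries for *M17* (3704 CPM), *ATECP31* (AT3G22500, 2665 CPM), the summed SMP group (5414 CPM) and the summed AtM group (10163 CPM). It was far below them for AT3G02480 (254.6 CPM). *msh-1* replicate 1 was far above the other *msh-1* libraries for the summed LEA_5 group (33268 CPM).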

How the results depend on the processing

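No member tested (42, but 47 with DESeq2 and 39 at equal depth) was called or had an adjusted p under 0.05 with DESeq2 size factors, library totals, a minimum of 10 counts in 4 libraries, DESeq2, limma-voom or equal depth. Over all genes tested, these settings called 0.177% to 0.486% and gave an adjusted p under 0.05 for 0.177% to 0.535%. Without a filter on low counts 2 members were called (*ERD14* and AT4G13230), beside 1.9% of all genes tested. An adjusted p under 0.05 was then reached by 4 members, beside 2.22% of all genes. Without WT replicate 4 and *msh-1* replicate 1 these counts were 2 and 4 in edgeR, beside 2.53% and 3.17% of all genes. With DESeq2 on the same libraries, a setting added after the data were seen, they were 1 and 3, beside 0.995% and 1.16%. Leaving out single libraries gave 0 to 2 and 0 to 3, beside 0.0357% to 1.86% and 0.0357% to 2.11% of all genes. The cause was not tested. Libraries with the same replicate number did not deviate together (correlation of deviations from -0.22 to 0.15). These correlations cannot show whether such libraries were handled together. With a replicate block 0 members were called and 0 passed the adjusted threshold, beside 0.22% of all genes for each rule, and 6 had an unadjusted p under 0.05. The log2 fold change of *M17* was then 0.41 and that of AT3G02480 -0.38.

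Directions turned for members with fold changes near 0. *RAB18* (AT5G66400) was at 0.0019 with library totals, 0.014 without a filter, 0.0095 in the 6 libraries and 0.015 there with DESeq2, and from -0.061 to 0.028 with single libraries left out. *AtLEA4-1* (AT1G32560) was at 0.019 with library totals, 0.034 without a filter, 0.0045 with DESeq2 and 0.0030 with limma-voom, and from -0.056 to 0.038 with single libraries left out. Single libraries left out also gave -0.010 to 0.14 for AT3G22500, -0.0011 to 0.13 for AT5G66780 and -0.27 to 0.077 for *SAG21* (AT4G02380).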
